A study of Mus musculus with 6 samples.

Results

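The clustered protocadherins are a family of cadherin-like cell surface proteins encoded in 3 neighbouring gene clusters, named alpha, beta and gamma. Members were chosen by name, as every gene identifier whose mouse symbol is Pcdha, Pcdhb or Pcdhg with an isoform number, or one of the C-type isoforms Pcdhac1, Pcdhac2, Pcdhgc3, Pcdhgc4 and Pcdhgc5. This gave 58 of the 78298 identifiers in the table, with 14 in the alpha, 22 in the beta and 22 in the gamma cluster. Of these, 57 had a mean of at least 10 normalised counts over the 6 libraries and were tested. The exception was Pcdhb1.

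Bulk RNA was measured in the whole left brain of male mice, with 3 libraries from wild-type mice and 3 from mice homozygous for the Top2b-low allele. In the Top2b-low mice, CRISPR/Cas9 was used to put a degron tag of the AID type, which auxin can trigger, at the start (5′) of the coding sequence of Top2b. No mouse was given a drug or chemical. Tissue age is 10 weeks in the sample labels and 3.5 months in the series text, which was not resolved. The question posed by the series is what lower Top2b does to the adult brain transcriptome. The library of Top2b-low replicate 3 has a name ending in dNdN where the other mutant names end in Homo, and its title and genotype label put it in the Top2b-low group. The names of both replicate 3 libraries start with N22.

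In the alpha and gamma clusters, each variable exon has its own promoter and is spliced to constant exons shared by the whole cluster, while most beta genes are single coding exons of their own. Neurons each use a few alternate isoforms, chosen through promoters bound by CTCF and looped to distant enhancers with cohesin, and the resulting cell surface code serves self-recognition of neurites. C-type isoforms are used more broadly and have separate roles. Top2b, topoisomerase II beta, passes one DNA duplex through another, is found at sites bound by CTCF and cohesin, and is the main type II topoisomerase of neurons.

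Top2b itself was lower in every Top2b-low library. It stood at 3160, 3014 and 2485 normalised counts in wild-type replicates 1, 2 and 3, and at 2152, 2314 and 1965 in Top2b-low replicates 1, 2 and 3. The groups did not overlap, and the mean was 25.7% lower. The log2 fold change was -0.42 (SE 0.11), with an unadjusted p of 0.00629 and an adjusted p of 0.99997 in limma over 17391 genes. With the replicate number as a block, limma's adjusted p was 0.395. All values below follow the same replicate order, wild type first, and levels are the deposited normalised counts unless said otherwise.

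The N22 libraries stood apart before any protocadherin was examined. Summed markers of cerebellar granule cells were 26552 to 32396 normalised counts in the 4 other libraries, against 6721 to 6883 in the N22 pair, with 12 of 12 genes called lower by limma. Gabra6, a receptor subunit that defines these cells, was at 2020 to 2348 in the 4 other libraries, against 0.711 and 0.592, a single read each, in the N22 pair. The N22 libraries thus carry the tissue label whole left brain with this defining cerebellar marker near 0. Markers of neurons in general summed to 178630 to 190110 in the 4 other libraries, against 181960 to 196820 in the N22 pair. Against 16.7% of all genes called lower and 11.3% called higher, limma called lower 10 of 12 Purkinje cell, 7 of 12 astrocyte, 4 of 12 choroid plexus, 3 of 12 oligodendrocyte and 6 of 9 tested serotonergic or noradrenergic markers, of whose full list 4 genes were at 0 in some library. It called Pcp4 of the Purkinje list higher (log2 difference 0.46), and of 12 general neuronal markers it called 3 lower and 1 higher. The N22 libraries also held 28629911 and 35246703 reads, against 16963067 to 17413959 in the others. In bulk RNA, fewer cells of a type and less RNA per cell cannot be told apart. Results are therefore given for all 6 libraries, for the 4 others and for the N22 pair.

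The gamma cluster carried most of the family's reads in all 6 libraries. Its share of the 58 members' reads ran from 65.0% to 66.3%, against 17.6% to 19.5% for alpha and 15.0% to 16.4% for beta. Summed normalised counts of the alpha cluster were 3871, 4112 and 3872 in wild type, against 4009, 4514 and 4072 in Top2b-low. Those of the beta cluster were 3539, 3606 and 3077 in wild type, against 3693, 3801 and 3168 in Top2b-low. Those of the gamma cluster were 14175, 14329 and 13513 in wild type, against 15030, 16368 and 13674 in Top2b-low. Taken by replicate number, the Top2b-low library had the higher sum in all 3 pairs of each cluster. The numbers come from the titles and are not known to pair libraries outside N22. With replicates 1 and 2 crossed, the alpha sum of Top2b-low replicate 1 (4009) was below that of wild-type replicate 2 (4112). The crossed beta and gamma sums stayed higher in Top2b-low. Taken as groups, wild type and Top2b-low overlapped in each cluster, with Top2b-low replicate 2 highest, and the N22 pair held the lowest 2 sums of the beta and gamma clusters.

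**Figure D1:**
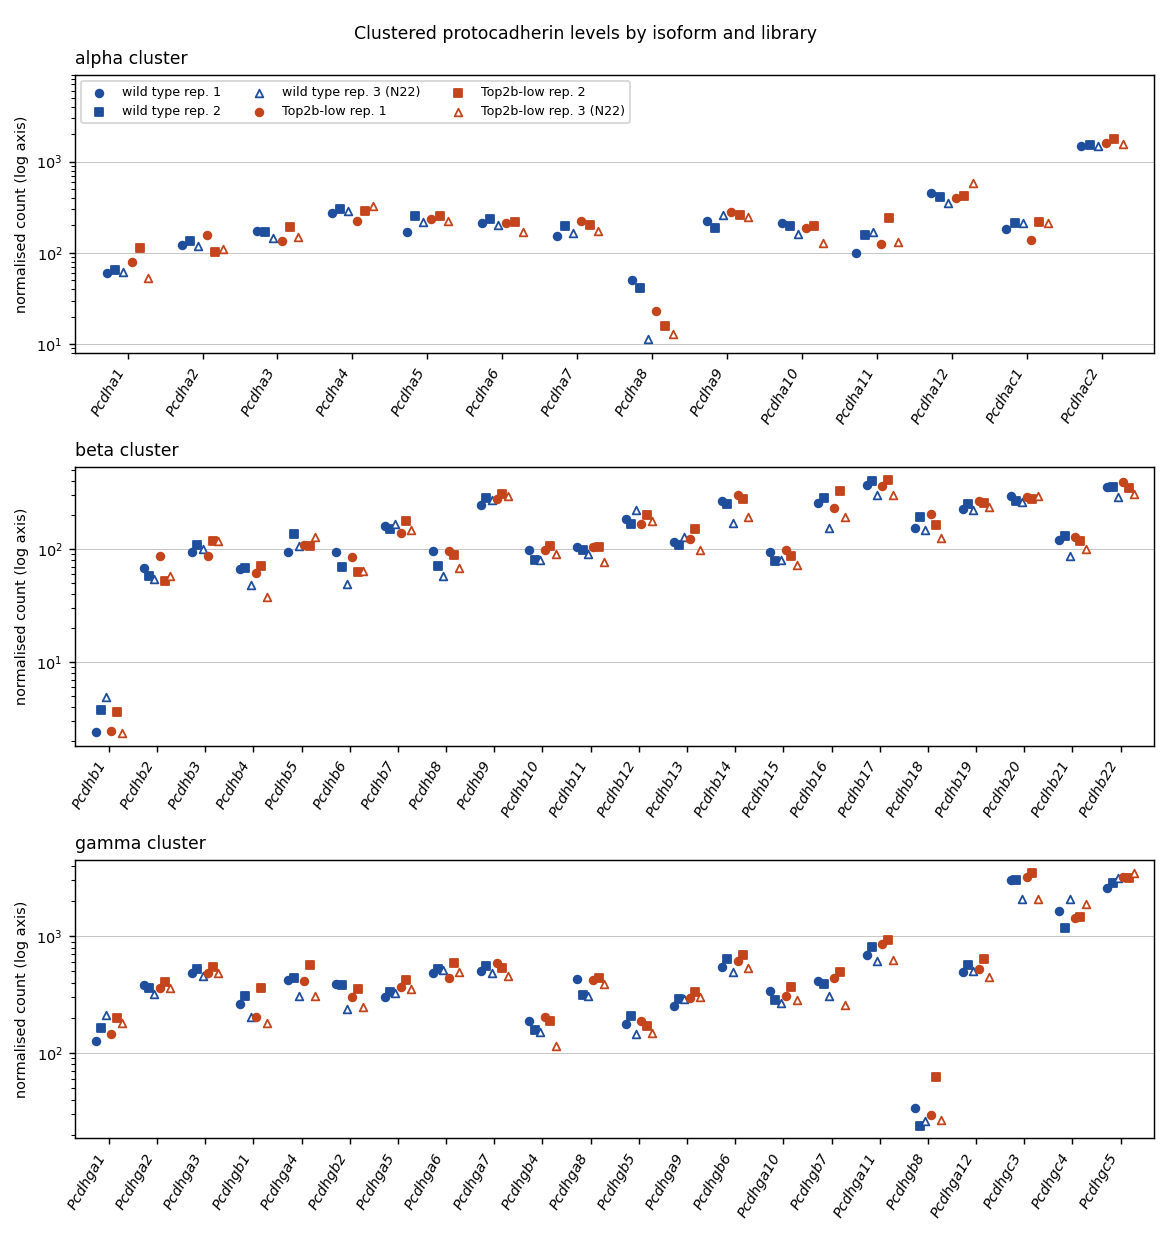
Level of each clustered protocadherin in each library, in normalised counts on a log axis, with isoforms in their order along each cluster. Blue is wild type, orange is Top2b-low, and open triangles are the N22 libraries. Pcdhac2 and the C-type gamma isoforms stand above the alternate isoforms, and Pcdhb1 stands lowest.

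Compared per kb of transcript, C-type isoforms held the highest levels of the alpha and gamma clusters. Pcdhgc5, a gamma isoform found at GABA synapses, averaged 649.7 normalised counts per kb over the 6 libraries, Pcdhgc3 averaged 600.6 and Pcdhgc4 averaged 320.5. The order of Pcdhgc5 and Pcdhgc3 depends on the length used, since per kb of all annotated exons Pcdhgc3 was at 512 and Pcdhgc5 at 404. Pcdhac2, known for the spacing of serotonergic axons, was the highest alpha isoform at 267 per kb. Pcdhac1, the other C-type alpha isoform, was at 36.1 per kb, within the range of the alternate alpha isoforms (4.87 to 81.9). The C-type label therefore did not go with a high level in every case.

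The lowest members were each far below their neighbours. Pcdha8 averaged 4.87 normalised counts per kb, the lowest of the alpha cluster. Pcdhgb8, which the annotation lists as a polymorphic pseudogene, averaged 7.30 per kb, the lowest of the gamma cluster. Pcdhb1, at the start of the beta cluster, averaged 1.26 per kb and stood at 2.43, 3.76 and 4.98 normalised counts in wild type, against 2.46, 3.64 and 2.37 in Top2b-low. These Pcdhb1 values come from 2 to 7 reads, near the 3 reads taken here as the limit of counting, so no genotype difference was detectable for it. The highest beta isoform was Pcdhb9 at 91.2 per kb.

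Isoform use was spread broadly within clusters. The effective number of isoforms, the exponential of the Shannon entropy of the shares, was 17.96 to 18.3 of 22 in beta, 12.8 to 14.0 of 22 in gamma and 8.27 to 8.999 of 14 in alpha across the 6 libraries. Among alternate isoforms it was 16.7 to 17.0 of 19 in gamma and 9.38 to 10.6 of 12 in alpha. The lower figure for whole clusters goes with Pcdhac2, which held 37.3% to 39.7% of alpha reads, and with the C-type isoforms of gamma, which held 49.3% to 54.6% of gamma reads. Position along the cluster and level per kb had a Spearman correlation of 0.58 over 22 beta isoforms, 0.34 over 12 alternate alpha isoforms and 0.12 over 19 alternate gamma isoforms. These are descriptions across isoforms from the same 6 libraries.

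Between genotypes, no clustered protocadherin was called at an adjusted p of 0.05. Limma called 0 of 57 tested members and 0% of all 17391 genes, as did edgeR and DESeq2 on the recovered reads (0 genes each). At an unadjusted p under 0.05, limma counted 0 members against 1.51% of all genes (262), edgeR counted 1 member among 250 genes and DESeq2 counted 0 among 168. Of the members, 38 were higher and 19 lower in Top2b-low, while 49.4% of all genes were higher. By cluster, 7 of 14 alpha, 15 of 21 beta and 16 of 22 gamma isoforms were higher.

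The median log2 fold change was 0.04 in alpha, 0.05 in beta and 0.08 in gamma, against -0.00 over all genes. Summed counts were 6.23% higher for alpha (3952 ± 139 in wild type, against 4198 ± 275 in Top2b-low, SD, n = 3 each). They were 4.30% higher for beta (3408 ± 288 and 3554 ± 339). For gamma they were 7.27% higher (14006 ± 433 and 15024 ± 1347). With libraries left out in turn, the gamma median ran from -0.005 (without Top2b-low replicate 2) to 0.165 (without Top2b-low replicate 3), and was 0.017 without wild-type replicate 3. The beta median ran from -0.006 (without wild-type replicate 3) to 0.132 (without Top2b-low replicate 3). The alpha median ran from -0.024 (without wild-type replicate 1 or Top2b-low replicate 2) to 0.122 (without Top2b-low replicate 1). In the 4 libraries outside N22 the medians were -0.05 for alpha, 0.05 for beta and 0.14 for gamma, and in the N22 pair they were 0.00, 0.10 and 0.02.

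The direction of single isoforms often differed between these library sets. Of 57 members, 24 were higher in Top2b-low and 6 were lower in both the 4 other libraries and the N22 pair, so 52.6% had the same sign, against 51.1% of all 17391 genes. No library is shared between the 2 sets. Across members the correlation of the 2 differences was -0.23, and across all genes it was 0.07, with genes not being independent replicates. In gamma A isoforms, 12 of 12 were higher in Top2b-low in the 4 other libraries, against 8 of 12 in the N22 pair. Among gamma B isoforms, 4 of 7 were higher in each, but not the same 4, with 2 higher in both and 1 lower in both.

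**Figure D2:**
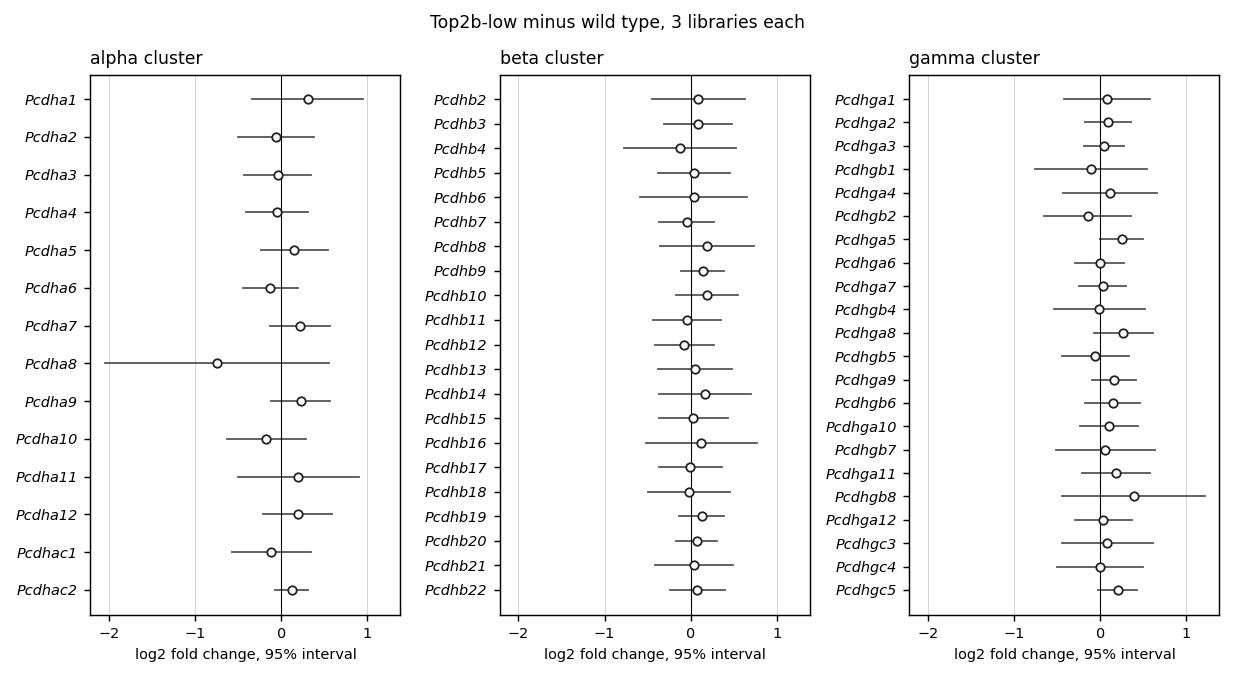
Log2 fold change of each tested clustered protocadherin, Top2b-low minus wild type (3 libraries each), with the 95% interval from limma, by cluster and in order along it. Open circles are members that were not called, which is all of them, and every interval spans 0.

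In the alpha cluster, Pcdhac2 was the member whose genotype groups did not overlap. It stood at 1477, 1535 and 1498 normalised counts in wild type, against 1590, 1778 and 1552 in Top2b-low. The log2 fold change was 0.12 (SE 0.08), with an unadjusted limma p of 0.172. Pcdhac1 was at 181, 213 and 211 in wild type, against 138, 221 and 211 in Top2b-low, with Top2b-low replicate 1 lowest and the groups overlapping. Its log2 fold change was -0.11 (SE 0.20).

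Alternate alpha isoforms are the variable part of the code that neurons draw from, and of 12, 6 were higher in Top2b-low and 6 lower. Pcdha9 and Pcdha6 were each picked among the smallest p in their own direction, so their opposite signs follow from that choice. Pcdha9 was at 225, 189 and 264 in wild type, against 281, 262 and 245 in Top2b-low, with overlap and a log2 fold change of 0.23 (SE 0.15, unadjusted limma p of 0.161). Pcdha6 was at 215, 238 and 204 in wild type, against 214, 217 and 172 in Top2b-low, and its log2 fold change was -0.13 (SE 0.14).

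Pcdha8 had the most negative value of the family, from few reads. It stood at 51.0, 41.4 and 11.4 in wild type, against 23.4, 15.8 and 13.0 in Top2b-low, so wild-type replicate 3 lay below all Top2b-low libraries. The log2 fold change was -0.75 (SE 0.56), with a limma 95% interval of -2.05 to 0.55. In the N22 pair alone it was 0.18, the opposite sign. Pcdha12 is outside the naming rule and was chosen after its values were seen. It was at 457, 411 and 351 in wild type, against 396, 425 and 581 in Top2b-low, the highest of which is the N22 library. Its log2 fold change was 0.19 (SE 0.17), with -0.08 outside N22 and 0.73 within the N22 pair.

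In the beta cluster no isoform's genotype groups were apart. Pcdhb9 was at 245, 279 and 271 in wild type, against 274, 307 and 295 in Top2b-low, overlapping between wild-type replicate 2 and Top2b-low replicate 1. Its log2 fold change was 0.14 (SE 0.11, unadjusted limma p of 0.234). Pcdhb10 was at 97.2, 80.2 and 80.4 in wild type, against 98.4, 106 and 89.9 in Top2b-low. Its log2 fold change was 0.19 (SE 0.15), and Top2b-low replicate 3 lay within the wild-type range.

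The beta isoforms with the most negative values were no further from 0. Pcdhb4 was at 66.8, 67.7 and 47.6 in wild type, against 61.5, 70.4 and 37.9 in Top2b-low, for a log2 fold change of -0.13 (SE 0.28). Both N22 libraries were below the other 4. Pcdhb12 was at 186, 168 and 219 in wild type, against 165, 201 and 175 in Top2b-low, with a log2 fold change of -0.08 (SE 0.15). The 21 tested beta isoforms ranged from -0.13 to 0.19.

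In the gamma cluster, Pcdhga5 had the smallest p of the family. It stood at 304, 330 and 327 normalised counts in wild type, against 369, 420 and 353 in Top2b-low, without overlap. The log2 fold change was 0.25 (SE 0.11), with an unadjusted limma p of 0.0525 and an adjusted p of 0.99997. Pcdhga9 was likewise without overlap, at 255, 292 and 289 in wild type, against 297, 333 and 304 in Top2b-low. It was chosen after its values were seen.

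Pcdhga5, Pcdhga9 and Pcdhac2 were the 3 of 57 members whose Top2b-low libraries were all above wild type (5.26%, against 2.70% of all genes). No member lay wholly below, against 3.04% of all genes. With 3 libraries against 3, an exact two-sided permutation test cannot give a p under 0.1, which is what such a separation gives. The members' share rests on 3 genes.

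The C-type gamma isoforms differed in how far the N22 libraries spread their groups. Pcdhgc5 was at 2565, 2871 and 3169 in wild type, against 3214, 3155 and 3506 in Top2b-low, overlapping only between wild-type replicate 3 and Top2b-low replicate 2. Its log2 fold change was 0.20 (SE 0.10, unadjusted limma p of 0.0723). Pcdhgc3, which shapes dendrites through the scaffold Axin1, was at 3048, 3028 and 2092 in wild type, against 3185, 3477 and 2062 in Top2b-low, for a log2 fold change of 0.08 (SE 0.23). Pcdhgc4, needed for the survival of cortical interneurons, was at 1635, 1164 and 2079 in wild type, against 1437, 1452 and 1893 in Top2b-low, for -0.00 (SE 0.21). Both have wide intervals, and in both the N22 libraries are at 1 end of each group.

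The gamma B isoforms with the most negative values were Pcdhgb2 and Pcdhgb1. Pcdhgb2 was at 392.3, 378 and 240 in wild type, against 301, 351 and 250 in Top2b-low, for a log2 fold change of -0.14 (SE 0.22). Pcdhgb1 was at 264, 307 and 203 in wild type, against 202, 361 and 180 in Top2b-low, for -0.11 (SE 0.28). Pcdhgb8 was at 34.0, 23.8 and 26.3 in wild type, against 29.5, 61.9 and 26.6 in Top2b-low, with Top2b-low replicate 2 far above the other 5. Groups overlapped in all 3.

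A fit with the replicate number as a block also called 0 members. Same-numbered libraries deviated together, though outside N22 libraries of different numbers did so too. At an unadjusted p under 0.05 it counted 4 of 57 members, all gamma, and 1169 of all 17391 genes. In this fit the members' share was thus close to that of all genes. The 4 members were Pcdhgc5 with 0.00627, Pcdhga5 with 0.0197, Pcdhga8 with 0.0325 and Pcdhga11 with 0.0370 in limma with the replicate block. Each was higher in Top2b-low. Their lowest adjusted p was 0.518. Pcdhga8 and Pcdhga11 are outside the naming rule and are given because of their values. At the same unadjusted limma threshold, the 4 libraries outside N22 gave 6 of 57 members and 818 of 17391 genes. The members' share was larger than that of all genes there. With an N22 term beside genotype, limma counted 3 members and 1011 genes. Both fits called 0 members.

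Clustered protocadherins were called only in the comparison of N22 libraries with the rest. With genotype in the limma model, 14 of 57 members were called lower in the N22 pair (24.6%, against 16.7% of all genes) and 1 was called higher (1.75%, against 11.3%). Lower calls were 2 in alpha (Pcdha8 and Pcdha10), 5 in beta (Pcdhb4, Pcdhb14, Pcdhb16, Pcdhb17 and Pcdhb22) and 7 in gamma (Pcdhga4, Pcdhga11, Pcdhgb2, Pcdhgb4, Pcdhgb6, Pcdhgb7 and Pcdhgc3). These lower calls are 14.3% of alpha, 23.8% of beta and 31.8% of gamma members tested, so the alpha share was below that of all genes. The higher call was Pcdhgc4. Median log2 differences were -0.11 in alpha, -0.23 in beta and -0.22 in gamma, against -0.00 over all genes. Granule cell markers had a median log2 difference of -2.62 between the same libraries, and their part in the protocadherin values was not tested.

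Counting separation instead of calls gave the same lean. In 22 of 57 members (38.6%) both N22 libraries lay below the other 4, against 26.5% of all genes. By cluster this held for 21.4% of alpha, 42.9% of beta and 45.5% of gamma members. The alpha share was again below that of all genes. In 1 member (1.75%) both lay above, against 22.8%. The N22 set is 1 library per genotype and coincides with replicate number 3, so its library names, depth, tissue content and animals cannot be told apart. Without wild-type replicate 3, 7 members were called, and without Top2b-low replicate 3, 5 were called. Pcdhb14 and Pcdhgc3 were called under every alternative tried, and 9 of the 15 were called by limma, edgeR and DESeq2 alike.

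The N22 difference was also taken in each genotype separately. In wild type, replicate 3 minus the mean of replicates 1 and 2 had a median of -0.14 over members, and in Top2b-low the same difference had a median of -0.26. Both were negative in 38 members and both positive in 6, so 77.2% had the same sign, against 76.4% of all genes. The sign agreed in 19 of 22 gamma, 15 of 21 beta and 10 of 14 alpha isoforms. A test for a different N22 effect by genotype, added after the data were seen, called 0 members and 4 genes in limma. Among members Pcdha12 had its smallest unadjusted p, 0.00175 (limma adjusted p = 0.692).

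**Figure D3:**
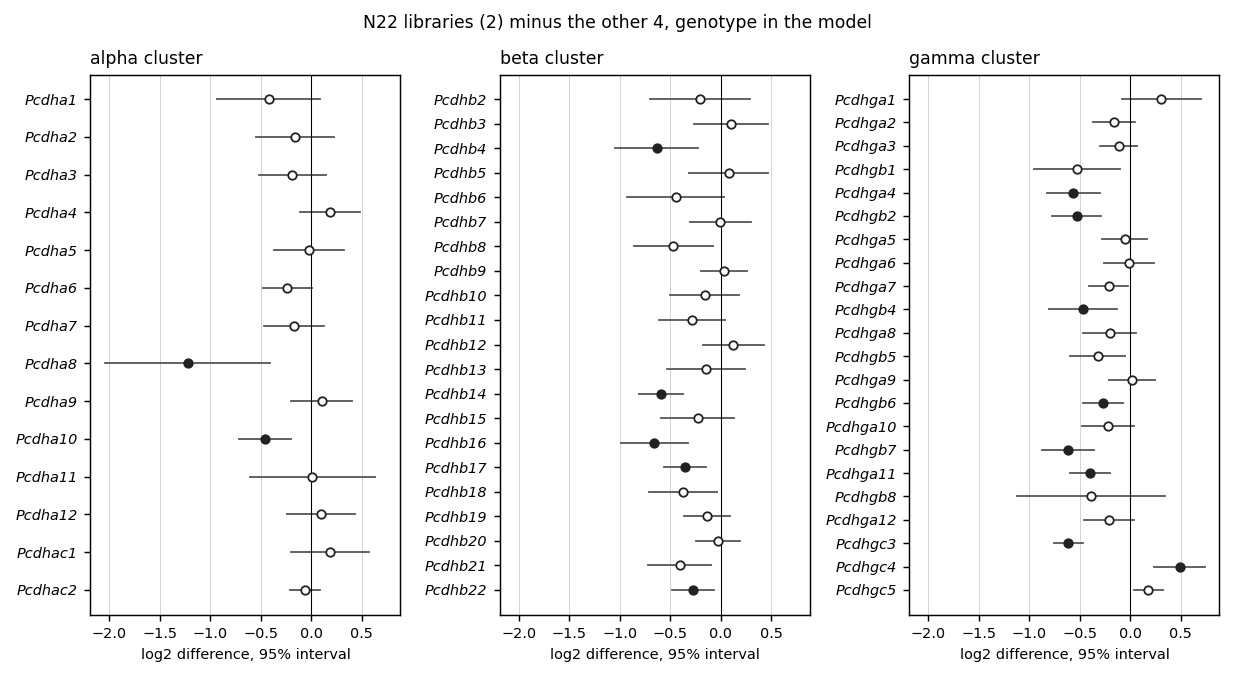
Log2 difference of each tested clustered protocadherin between the 2 N22 libraries and the other 4, with genotype in the limma model and 95% intervals. Filled circles were called at an adjusted p under 0.05. Of the filled circles, 14 lie below 0 and Pcdhgc4 lies above.

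Of the 7 gamma B isoforms, 4 were called lower in the N22 pair, against 16.7% of all genes. The median log2 difference of the 7 was -0.47, and all 7 values were negative. Pcdhgb1, Pcdhgb5 and Pcdhgb8 were not called (limma adjusted p = 0.0639, 0.0769 and 0.415). Pcdhgb7 was at 412, 394, 438 and 498 in the 4 other libraries, against 309 and 259 in the N22 pair. Its log2 difference was -0.61 (SE 0.12, limma adjusted p = 0.00413), and without Top2b-low replicate 3 it was -0.38 and not called (limma adjusted p = 0.11). Pcdhgb2 was 31.1% lower (356 ± 40.1, SD, n = 4, against a mean of 245 in the N22 pair), for a log2 difference of -0.53 (SE 0.11, limma adjusted p = 0.0059). Gamma A isoforms had a median of -0.18, with 10 of 12 lower and 2 called.

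In the beta cluster, Pcdhb16 had the most negative value. It was at 253, 283, 229 and 324 in the 4 other libraries, against 153 and 191 in the N22 pair, for -0.66 (SE 0.15, limma adjusted p = 0.00936). Without wild-type replicate 3 it was at -0.51 and not called (limma adjusted p = 0.153). Pcdhb4 followed at -0.64 (SE 0.19, limma adjusted p = 0.0289). DESeq2 did not call it (adjusted p = 0.126), and 7 of 13 alternatives lost the call, 5 of them by leaving out a single library. Pcdhb12 and Pcdhb3 had the highest values in beta, 0.13 (SE 0.14) and 0.10 (SE 0.17), and neither was called. Beta isoforms overlap little or not at all in their annotated exons, but they are close paralogues, and division of similar reads among them was not tested.

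In the alpha cluster, the called isoforms were Pcdha8, at -1.23 (SE 0.37, limma adjusted p = 0.0328), and Pcdha10, at -0.46 (SE 0.12, limma adjusted p = 0.0166). DESeq2 called neither (adjusted p = 0.0524 and 0.0565). The Pcdha8 call was lost in 7 of 12 alternatives, and without wild-type replicate 3 its difference was -0.53 (limma adjusted p = 0.478). Pcdha10 lost its call without wild-type replicate 3 (limma adjusted p = 0.0599) and without Top2b-low replicate 3 (limma adjusted p = 0.224). Pcdha10 was at 215, 197, 190 and 195 in the 4 other libraries, against 162 and 129 in the N22 pair, without overlap. Pcdha4 and Pcdhac1 had the highest values, 0.19 each (SE 0.13 and 0.17), and were not called. Pcdhac2 differed by -0.06 (SE 0.07).

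The C-type gamma isoforms moved in opposite directions. Pcdhgc3 averaged 3184 ± 207 (SD, n = 4) in the 4 other libraries, against 2077 in the N22 pair, a log2 difference of -0.61 (SE 0.06, limma adjusted p = 0.000147). Pcdhgc4 averaged 1422 ± 194 (SD, n = 4) and 1986, a difference of 0.49 (SE 0.11, limma adjusted p = 0.011). Its call was lost without wild-type replicate 3 (limma adjusted p = 0.166) and without Top2b-low replicate 3 (limma adjusted p = 0.0561). Pcdhgc5 was higher by 0.18 (SE 0.06, limma adjusted p = 0.0578) and was not called by limma, while edgeR gave an adjusted p of 0.0432 and DESeq2 0.0439.

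The balance among these isoforms followed the library sets. The ratio of Pcdhgc4 to Pcdhgc3 counts was 0.536, 0.385 and 0.994 in wild type, against 0.451, 0.418 and 0.918 in Top2b-low. The ratio of Pcdhgc5 to Pcdhgc3 was 0.842, 0.948 and 1.51 in wild type, against 1.01, 0.907 and 1.70 in Top2b-low. In both, the replicate 3 libraries were above the other 4. Pcdhgc3 held 15.5% of gamma reads in wild-type replicate 3 (Wilson 95% interval 15.0% to 16.0%) and 15.1% in Top2b-low replicate 3 (14.6% to 15.6%). In the other 4 libraries it held 21.1% to 21.5%, with intervals between 20.4% and 22.3%. These intervals cover counting error only.

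**Figure D4:**
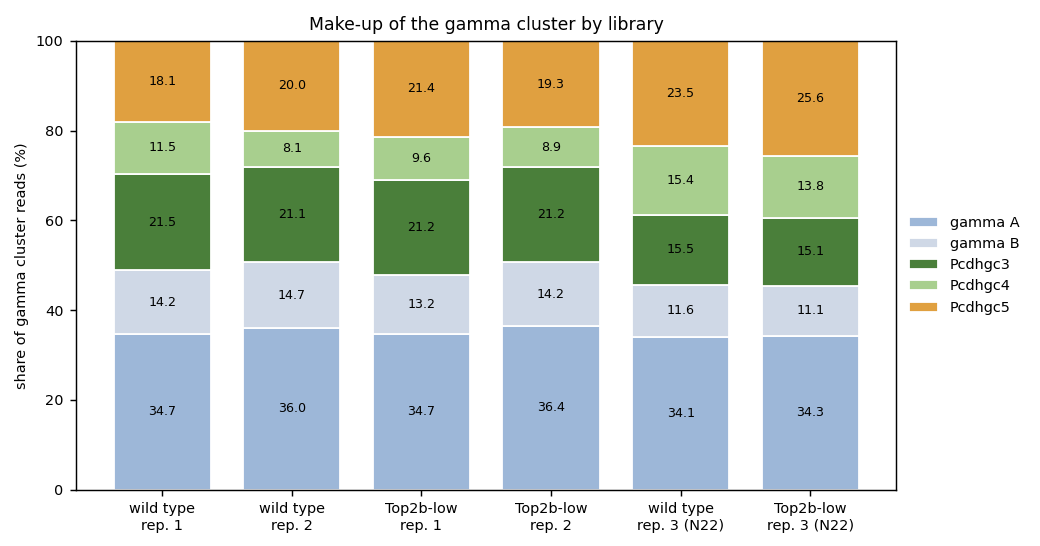
Share of gamma cluster reads held by gamma A isoforms, gamma B isoforms, Pcdhgc3, Pcdhgc4 and Pcdhgc5 in each library, in percent, with the N22 libraries on the right. Pcdhgc3 holds 21.1% to 21.5% in the 4 other libraries and 15.5% and 15.1% in the N22 pair, where Pcdhgc4 and Pcdhgc5 hold more.

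Isoform profiles of different libraries were close. Over 15 pairs of libraries, the correlation of log2 levels across isoforms was 0.968 to 0.994 in gamma, 0.918 to 0.977 in beta and 0.888 to 0.985 in alpha. These pairs share the isoforms' own levels and lengths. In the 4 libraries outside N22, the variance of a member over that of counting alone had a median of 3.41 in alpha, 1.57 in beta and 4.80 in gamma, against 1.74 over all genes. This measure grows with read number at the same relative spread. Over the 6 libraries, tested members reached 2623 reads in alpha, 517 in beta and 5927 in gamma. Levels were not matched, so these medians do not rank the clusters by variability. Alpha genes share 38.0% to 54.9% and gamma genes 27.8% to 66.8% of their annotated exon length with other members, and beta genes 0% to 9.67%. The division of constant-exon reads among isoforms was made by RSEM and was not tested.

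Genes of the locus outside the family went in both directions. Taf7, a subunit of the general transcription factor TFIID whose gene lies between the beta and gamma isoforms, was at 223, 213, 226 and 237 in the 4 other libraries, against 150 and 160 in the N22 pair. Its log2 difference was -0.53 (SE 0.11, limma adjusted p = 0.00505), and its genotype difference was 0.09 (SE 0.21). The antisense transcript BC037039 was higher in the N22 pair by 0.80 (SE 0.22, limma adjusted p = 0.0231). Whether counting used strand is not given, so its reads and those of overlapping members cannot be told apart. Of 13 tested neighbours in the fixed list, 0 were called between genotypes, with 5 higher and 8 lower. In the N22 pair 4 were called higher and 1, Taf7, lower, against 11.3% and 16.7% of all genes.

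Factors known to act on protocadherin promoters were not called between genotypes. Of 27 listed regulators, 15 were higher and 12 lower, 0 were called, and the median log2 fold change was 0.00. The cohesin subunit Stag1 was at 1079, 1114 and 1044 in wild type, against 1158, 1158 and 1132 in Top2b-low, a log2 fold change of 0.09 (SE 0.07). The cohesin loader Mau2 was at 0.09 (SE 0.07), and the H3K9 methyltransferases Setdb1 and Ehmt1 at -0.06 (SE 0.09) and -0.05 (SE 0.09). Ctcf was at 1520, 1563 and 1320 in wild type, against 1440, 1702 and 1359 in Top2b-low, with the N22 library lowest in each group. In the N22 pair 15 of the 27 were called lower and 0 higher, against 16.7% and 11.3% of all genes. Of genes of cohesin and its loading, Smc1a, Smc3, Rad21, Stag2 and Nipbl were called lower, and Stag1 (limma adjusted p = 0.576) and Mau2 (limma adjusted p = 0.418) were not.

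Partners and relatives of the family were likewise not called between genotypes. Of 24 listed partners, 18 were higher and 6 lower, and 0 were called. Wasf1 and Cyfip2, of the WAVE complex that gamma and alpha isoforms bind, had log2 fold changes of 0.18 (SE 0.09) and 0.11 (SE 0.07). The kinase Ret was at -0.73 (SE 0.40) and Axin1 at -0.09 (SE 0.08). Of 12 tested non-clustered protocadherins, which lie outside the clusters and act in adhesion without the isoform choice, 3 were higher and 9 lower. Pcdh11x was at 559, 521 and 503 in wild type, against 487, 391 and 431 in Top2b-low, without overlap, a log2 fold change of -0.28 (SE 0.11, unadjusted limma p of 0.0388). Pcdh8 was at -0.25 (SE 0.12), and Cdhr1 and Pcdh20 at 0.15 (SE 0.12) and 0.10 (SE 0.12).

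Markers of forebrain excitatory neurons were higher in Top2b-low in 12 of 12 genes, with 0 called and a median log2 fold change of 0.21. They summed to 69984 to 92663 in wild type, against 83417 to 110840 in Top2b-low. In the N22 pair 8 of 12 were also called higher, against 11.3% of all genes, while 44 of 57 members were lower there. Of the other lists, 5 of 12 general neuronal, 5 of 12 granule cell and 5 of 12 astrocyte markers were higher in Top2b-low. So were 6 of 12 Purkinje cell, 3 of 12 choroid plexus, 2 of 12 oligodendrocyte and 2 of 9 serotonergic or noradrenergic markers. The part of forebrain excitatory markers in the small positive medians of the beta and gamma clusters was not tested.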

How the data were processed

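The deposited table holds a signal, namely counts that the authors normalised, for each gene in each of 6 libraries. RSEM and mm39 are named in the submitters' processing notes. The RSEM version, aligner, annotation and use of strand were not given in the sources used here. Per the labels' protocols, polyadenylated RNA was made into directional libraries. Dividing each library by its smallest step recovered whole reads for 100% of values (tolerance 1e-06), and the factors equalled DESeq2 size factors. On those reads edgeR and DESeq2 each called 0 genes between genotypes. Library totals were 16963067 to 35246703 reads. Symbols, lengths and order along the clusters came from GENCODE vM21 (GRCm38), which matched 51498 identifiers and at least 99.4% of reads. No coordinates were used, and no sequences are printed. The symbol Pcdha11 belonged to 2 identifiers, of which ENSMUSG00000007440 matches the RefSeq gene Pcdha10 and is named so.

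Differences were tested with limma 3.58.1 (R 4.3.3; intensity trend, two-sided) on log2(normalised count + 1) for 17391 genes with a mean of at least 10, Benjamini-Hochberg adjusted over all of them, with a threshold of 0.05. This scale understates changes of low genes. The series text counts 3 mice per genotype. P-values set each difference against the spread between these samples. Genotype was fitted alone, and the N22 difference with genotype in the model. In the genotype fit the split between N22 and other libraries therefore counts as spread. For Pcdhgc3, the SE was 0.23 in that fit and 0.06 with a replicate block. edgeR 4.0.16, DESeq2 1.42.0, other filters, pseudocounts and scalings, left-out libraries and a replicate block were alternatives. The numbers used in the block come from the titles. Same-numbered libraries had correlated deviations from their group means (0.33, 0.348 and 0.683). Crossing replicates 1 and 2 between genotypes gave 0.369 and 0.237, so outside N22 the correlation is not particular to shared numbers. Each group mean includes its N22 library, which puts replicates 1 and 2 of both genotypes on the same side of it. These values therefore cannot show a pairing outside N22. The scripts were tested on simulated data.

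Members and lists were chosen with earlier results of these data known. Named were Top2b, the C-type isoforms and, per cluster, the 2 members in each direction with the smallest p, the highest and lowest per kb, and the 2 in each direction with the largest N22 difference, called ones first. Of the other lists, up to 2 genes in each direction were named, and others were chosen after their values were seen.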

Additional observations from a re-analysis of the deposited data

How the results depend on the processing

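No member was called between genotypes under any of the 17 alternatives that gave a test. Over all genes, DESeq2 with the replicate block called 11 (0 members), and leaving out libraries in turn gave 0 to 1. That DESeq2 fit gave no adjusted p for Top2b, Pcdhac1 or Pcdhac2, so it could not have called them. Its count of 0 members is therefore not a test of every member. The limma replicate block called 0 and changed no other call. The alpha median was -0.052 in the 4 libraries outside N22. Members called in the N22 comparison numbered 5 to 13 with libraries left out in turn, and its beta median ran from -0.277 to -0.150. Fewer libraries remain in each such fit, and where that leaves 1 N22 library it is assumed to vary like the others.

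Genotype differences of single isoforms changed sign in some settings, and the cause was not tested. In the N22 pair alone, Pcdha8 was at 0.179, Pcdha9 at -0.107, Pcdhgb2 at 0.054 and Pcdhgc3 at -0.021. In the 4 other libraries, Pcdhb12 was at 0.045 and Pcdhgc4 at 0.066, and quantile normalisation put Pcdhgc4 at 0.000. With libraries left out in turn, ranges were -0.238 to 0.1 for Pcdhac1, -0.165 to 0.026 for Pcdhb12, -0.306 to 0.132 for Pcdhb4, -0.413 to 0.084 for Pcdhgb1, -0.099 to 0.311 for Pcdhgc3, -0.222 to 0.196 for Pcdhgc4 and -0.010 to 0.054 for Ik. N22 differences ranged from -0.058 to 0.309 for Pcdhb12 and -0.012 to 0.213 for Pcdhb3. Low counts limit Pcdhb1 and Pcdha8, and 2 N22 libraries limit that comparison.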
